A study of Homo sapiens with 9 samples.

Results

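This account covers 43 genes of the integrated stress response (ISR) and the unfolded protein response (UPR) in EPC2 cells, out of 24672 genes in the tables. They were taken by name from a list, and all 43 were found in each of the 9 libraries and passed the filter on low counts. Of them, 26 are here called the ATF4 side (12 transcription factors and effectors, 8 amino acid and one-carbon enzymes, 6 aminoacyl-tRNA synthetases), and 17 the ER side (10 chaperones and folding factors, 3 genes of ER-associated degradation, 4 sensors and transcription factors). EPC2 is an esophageal epithelial line immortalised with telomerase reverse transcriptase, so the series rests on a single line. In 3 libraries (the silenced libraries), EPC2 had SPINK7, an epithelial protease inhibitor, silenced and was stratified at an air-liquid interface (ALI). The control libraries, also 3, hold ALI cultures given a non-silencing control, and the 3 monolayer libraries hold non-silencing control cells that stayed undifferentiated in a monolayer. The labels do not name the silencing agent. On permeable supports, ALI cells began in 0.09 mM calcium, received 1.8 mM from day 2 and air contact from day 7, and gave RNA at day 14. All 9 libraries share growth in keratinocyte serum-free medium with epidermal growth factor (1 ng/mL) and bovine pituitary extract (50 ug/mL). Separate cultures are not stated for libraries that share a group, so p-values reflect the spread of these libraries alone, which may be technical.

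In the ISR, kinases that sense amino acid shortage, ER stress, heme shortage or double-stranded RNA phosphorylate the initiation factor eIF2, which lowers general translation while the mRNA of the transcription factor ATF4 is translated more. ATF4 and its partners then raise genes for amino acid synthesis and uptake, tRNA charging and, when the stress lasts, DDIT3 (CHOP) and cell death. The UPR answers unfolded protein in the endoplasmic reticulum (ER) through IRE1 (encoded by ERN1), which splices XBP1 mRNA, through ATF6, which is cleaved to a transcription factor, and through PERK (encoded by EIF2AK3), which is also an ISR kinase. XBP1 and ATF6 raise chaperones and degradation factors of the ER, and secretory epithelia depend on this arm. The tables hold counts per gene, so ATF4 protein, eIF2 phosphorylation and XBP1 splicing were not measured.

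ATF4 and the ER factors read different promoter elements, and a few are shown because the ATF4 side and the ER side differ in them. RefSeq promoters (GRCh38.p14, 250 bases before to 50 bases after a gene's start) were found for 40 of the 43 members, in 54 windows; PSPH, SHMT2 and ALDH1L2 are named only. Both strands were searched for the C/EBP-ATF element that ATF4 dimers bind (TGATGNAA), the ER stress element that ATF6 binds with NF-Y (CCAAT and CCACG with 9 bases between them) and the UPR element (TGACGTGG). The C/EBP-ATF element stood in 8 of 35 windows of the ATF4 side (22.9%) and 1 of 19 of the ER side (5.26%), against 3.62% of 35116 windows of all genes. The ER stress element stood in 0 of 35 windows of the ATF4 side and 5 of 19 of the ER side (26.3%), against 0.0769% of all windows. The UPR element stood in 1 window of each side, CARS and HYOU1, against 0.729% of all windows. Windows of a gene can overlap. By gene, the C/EBP-ATF element stood in 8 of 23 on the ATF4 side and 1 of 17 on the ER side. The ER stress element stood in 0 of 23 and 5 of 17 genes, in the same order. The sides were set by the known roles of the genes, so their contrast is a description and no test. A match is a description of letters, not of a bound site. The 5 stretches below end before the gene's start, are written in the sense of the gene, 5′ to 3′, and have the matched element in capitals. In CHAC1 and HERPUD1 the element lies on the other strand, so its reverse complement is printed.
CHAC1 (chr15:40953222-40953309, plus strand): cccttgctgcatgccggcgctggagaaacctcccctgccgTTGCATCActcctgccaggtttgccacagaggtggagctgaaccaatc
ASNS (chr7:97872429-97872516, minus strand): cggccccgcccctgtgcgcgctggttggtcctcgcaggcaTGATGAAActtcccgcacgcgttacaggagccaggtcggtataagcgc
HERPUD1 (chr16:56931926-56932013, plus strand): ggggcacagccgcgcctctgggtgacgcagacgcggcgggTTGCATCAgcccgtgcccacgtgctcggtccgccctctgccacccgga
HSPA5 (chr9:125241351-125241449, minus strand): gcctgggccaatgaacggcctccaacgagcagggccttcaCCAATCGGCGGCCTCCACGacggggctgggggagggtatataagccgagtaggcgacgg
XBP1 (chr22:28800570-28800661, minus strand): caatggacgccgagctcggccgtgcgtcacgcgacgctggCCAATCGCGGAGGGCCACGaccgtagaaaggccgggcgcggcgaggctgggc

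Libraries held between 7641960 and 14009746 counts. Silencing was visible in its target: SPINK7 had 20.9, 38.6 and 32.7 CPM (counts scaled to library size) in the silenced libraries, against 229.5, 261 and 225 CPM in the control libraries, or -2.96 (SE 0.30, adjusted p = 0.00246) as log2 fold change. All 10 squamous epithelial markers were detected in each group, and their summed level ran from 50600 to 90700 CPM in silenced libraries, from 38000 to 88700 CPM in control libraries and from 28300 to 30100 CPM in the monolayer. Of 21 markers of other cell types, PTPRC and MS4A1 (leukocytes), TYR and DCT (melanocytes) and LUM (fibroblasts) were at 0 in all 9 libraries. The summed level of the 7 fibroblast markers, nearly all COL1A1, ran from 20.7 to 45.6 CPM in silenced, from 12.2 to 49.2 CPM in control and from 50.1 to 186 CPM in monolayer libraries. That of the 6 leukocyte markers, nearly all CD68, ran from 67 to 95.3, from 52.9 to 70.5 and from 16.4 to 29.3 CPM in the same order. The 4 endothelial markers, mostly VWF, summed to 1.4 to 2.34, 3.03 to 9.62 and 0.304 to 0.567 CPM, and the 4 melanocyte markers to at most 3.28 CPM in any library. The ALI libraries numbered 2 in the labels stood apart from the other 4 ALI libraries in both arms: on the second principal component over all genes (14.6% of the variance) they lay at -23 (silenced) and -72.7 (control), and the other 4 between 13.7 and 51.3. In the names of the deposited tables, which number some ALI libraries otherwise, both carry the number 3. Where these libraries enter a comparison below, values without them are given for the members and lists they move most.

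On the ATF4 side, the ALI libraries numbered 2 carried far more mRNA of the amino acid enzymes than the other libraries, in silenced and control cells alike. All 43 members are shown by library in the heat map. In silenced library 2, 42 of the 43 members were at their highest level of the 3 silenced libraries, against 38.7% of all 12806 genes. In control library 2, 37 of 43 were at their highest of the 3 control libraries, against 41.9% of all genes. By ratio to the mean of the other 2 libraries of the group (0.5 CPM added to both), 26 of 43 members were at least 2-fold higher in silenced library 2, against 5.7% of all genes, and 27 of 43 in control library 2, against 10.2%. In both, 22 of 43 (51.2%) were at least 2-fold higher, against 2.43% of all genes (311 of 12806), and no member was 2-fold lower in either. These 22 were 17 of 26 genes of the ATF4 side and 5 of 17 of the ER side. Such counts describe single libraries and carry no test. In the monolayer, the single ratio at or above 2 was that of ATF3 in monolayer library 1 (2.97).

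**Figure D1:**
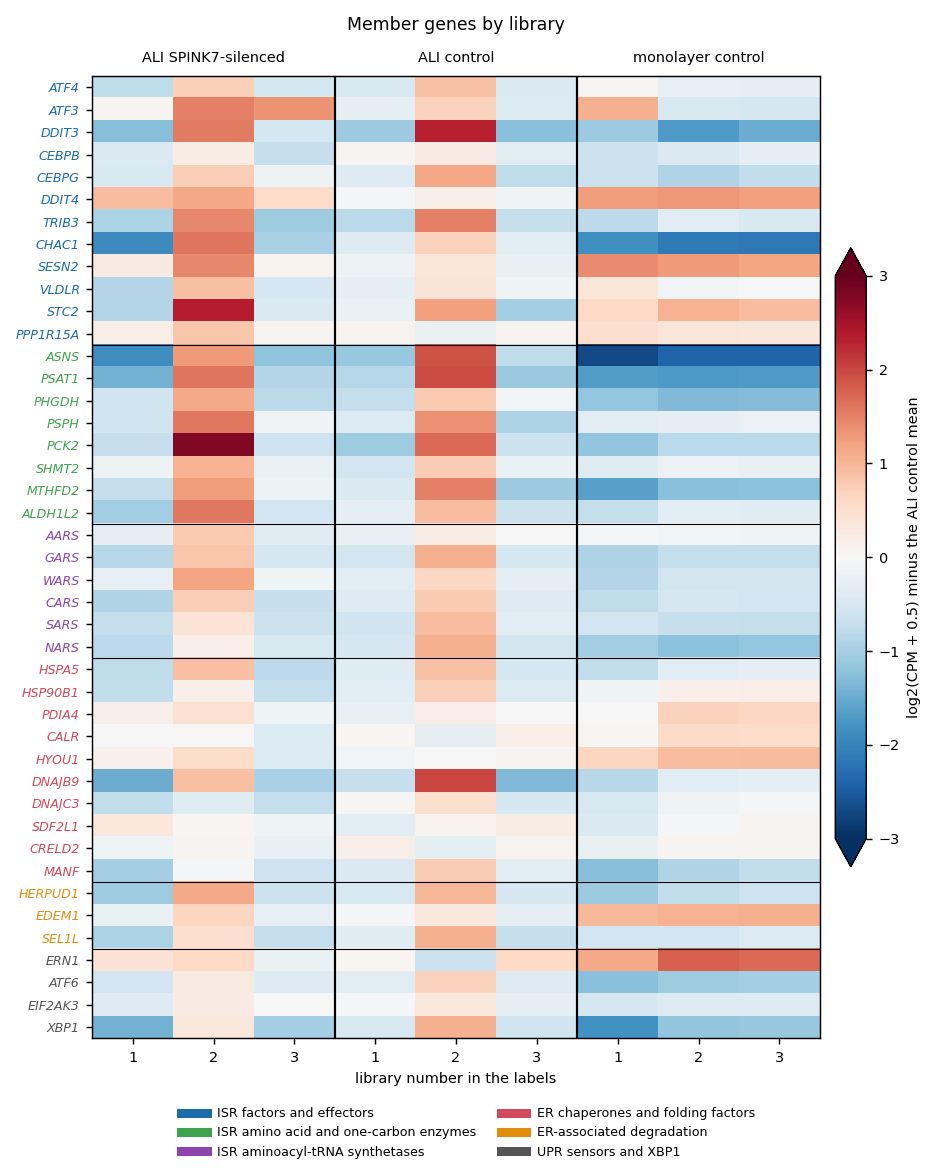
Each row is 1 of the 43 members and each column 1 library, in the order silenced, control and monolayer; colour is log2(CPM + 0.5) minus the mean of the 3 control libraries, and gene names are coloured by role. The columns of silenced library 2 and control library 2 are red for the amino acid and one-carbon enzymes (median 1.43 and 1.44), while DDIT4, SESN2, EDEM1 and ERN1 are red in the monolayer.

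All 8 amino acid and one-carbon enzymes were at least 2-fold higher in both ALI libraries numbered 2. ASNS (hg19 chr7:97481429-97501854), which makes asparagine, had 54.2, 479 and 84.4 CPM in silenced libraries 1, 2 and 3, 88.9, 739 and 116 CPM in control libraries and 29.5, 36.8 and 37 CPM in the monolayer. Silenced library 2 and control library 2 were 6.87 and 7.19 times the mean of the other 2 libraries of their groups. PSAT1, of serine synthesis, had 90.3, 741 and 132 CPM in silenced libraries 1, 2 and 3, 135, 948 and 112 CPM in control libraries and 76, 73.2 and 74.8 CPM in the monolayer. Its ratios were 6.64 and 7.65, in the same order. The other serine synthesis genes followed in the same libraries, with ratios of 3.56 and 2.22 for PHGDH and 3.74 and 4.09 for PSPH. PCK2, a mitochondrial enzyme that makes phosphoenolpyruvate, had ratios of 10.8 and 5.84. For the mitochondrial one-carbon enzymes the ratios were 2.33 and 2.2 (SHMT2), 3.17 and 4.69 (MTHFD2) and 5.17 and 2.57 (ALDH1L2).

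Of the 12 factors and effectors, 6 were at least 2-fold higher in both libraries. ATF4 itself had 185, 519.6 and 220.4 CPM in silenced libraries 1, 2 and 3, 232, 579.8 and 235 CPM in control libraries and 326, 268 and 257 CPM in the monolayer, with ratios of 2.56 and 2.48. Every monolayer library lay above ALI libraries 1 and 3 of both arms and below both ALI libraries numbered 2. DDIT3, a factor tied to cell death under stress, had 5.42, 42.1 and 9.6 CPM in silenced libraries 1, 2 and 3, 6.29, 72.4 and 5.6 CPM in control libraries and 6.3, 3.95 and 4.68 CPM in the monolayer. Both ALI libraries numbered 2 lay far above the other 7, with ratios of 5.32 and 11.3. TRIB3, a pseudokinase that holds ATF4 signalling back, had 54.4, 289 and 50.8 CPM in silenced libraries 1, 2 and 3, 60.8, 304 and 64.6 CPM in control libraries and 61.6, 83.9 and 77.4 CPM in the monolayer. CHAC1, which breaks down glutathione, had 10.1, 120.5 and 19.8 CPM in silenced libraries 1, 2 and 3, 30, 64.1 and 31.3 CPM in control libraries and 10.6, 8.6 and 8.51 CPM in the monolayer. CHAC1 was highest of all in silenced library 2 (ratios 7.84 and 2.07), but in silenced libraries 1 and 3 it lay below every control library. STC2, a secreted glycoprotein, had ratios of 8.01 and 3.42, and CEBPG, a C/EBP factor that dimerises with ATF4, 2.05 and 3.32. The other 6 did not reach 2-fold in both: ATF3 (1.58 and 2.06), a repressor induced by stress, CEBPB (1.73 and 1.27), DDIT4 (1.31 and 1.21), SESN2 (2.39 and 1.46), VLDLR (3.0 and 1.5) and PPP1R15A (1.62 and 0.804), which directs eIF2 dephosphorylation.

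Of the 6 aminoacyl-tRNA synthetases, which charge tRNA with amino acids, GARS, CARS and SARS were at least 2-fold higher in both, with ratios of 2.81 and 3.02, 2.9 and 2.24 and 2.12 and 2.61. NARS passed 2-fold in the control arm alone (1.7 and 3.01) and AARS in the silenced arm alone (2.16 and 1.26). WARS had 115, 312 and 124 CPM in silenced libraries 1, 2 and 3, 109.7, 209 and 110.4 CPM in control libraries and 73.9, 92.9 and 92.5 CPM in the monolayer, with ratios of 2.6 and 1.9.

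The ER side was mixed. HSPA5 (BiP), the master chaperone of the ER, had 449.9, 1440 and 442 CPM in silenced libraries 1, 2 and 3, 592, 1411 and 534 CPM in control libraries and 456, 615 and 620 CPM in the monolayer, with ratios of 3.23 and 2.5. DNAJB9, a cochaperone of BiP, had 15.2, 81.6 and 21.8 CPM in silenced libraries 1, 2 and 3, 26.9, 175 and 17.1 CPM in control libraries and 24.2, 34.5 and 36.1 CPM in the monolayer, with ratios of 4.32 and 7.79. These 2 were the only ones of the 10 chaperones and folding factors at 2-fold or more in both libraries. SDF2L1, a subunit of the BiP complex, had 12.2, 10.2 and 8.9 CPM in silenced libraries 1, 2 and 3, 7.63, 10.6 and 11.4 CPM in control libraries and 7.08, 9.41 and 10.4 CPM in the monolayer, and its groups overlapped. CALR and CRELD2 were likewise low in ratio, at 1.14 and 0.758 for CALR, a lectin chaperone, and 1.19 and 0.737 for CRELD2. Ratios of the other 5 were 1.84 and 2.1 (HSP90B1), 1.33 and 1.21 (PDIA4, a disulfide isomerase), 1.59 and 0.983 (HYOU1), 1.28 and 1.63 (DNAJC3) and 1.68 and 2.2 (MANF). HERPUD1, a scaffold of ER-associated degradation, had 34.6, 162 and 46.1 CPM in silenced libraries 1, 2 and 3, 51.7, 147 and 51 CPM in control libraries and 33.9, 43.7 and 47 CPM in the monolayer, with ratios of 3.98 and 2.84. SEL1L, which holds the degradation ligase HRD1, had ratios of 2.5 and 3.0, and EDEM1, which hands glycoproteins to degradation, 1.83 and 1.39. XBP1 had 77, 258 and 102 CPM in silenced libraries 1, 2 and 3, 149, 431 and 136 CPM in control libraries and 58.4, 89.8 and 92.8 CPM in the monolayer, with ratios of 2.87 and 3.02. ERN1 had 6.45, 7.21 and 3.98 CPM in silenced libraries 1, 2 and 3, 4.82, 2.77 and 7.19 CPM in control libraries and 10.8, 17.3 and 16.1 CPM in the monolayer, and control library 2 was its lowest ALI library (ratios 1.35 and 0.503). ATF6 had ratios of 1.68 and 2.07 and EIF2AK3 of 1.34 and 1.4. Over the whole sides, the median ratio in silenced library 2 and control library 2 was 2.86 and 2.53 for the ATF4 side, and 1.68 and 1.63 for the ER side, against 0.99 and 0.96 for all genes.

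**Figure D2:**
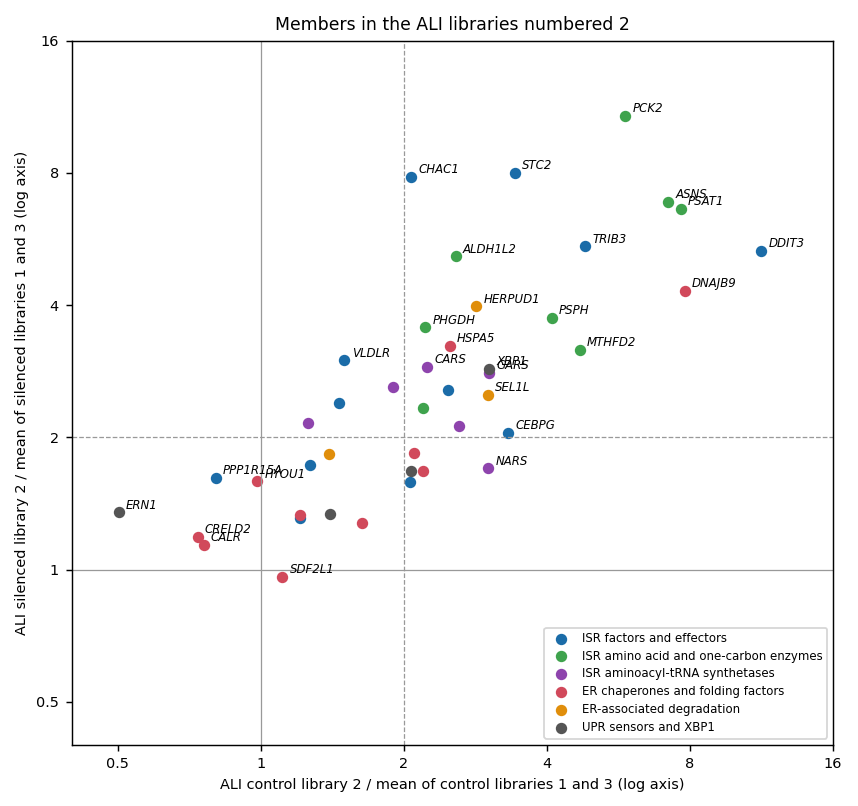
Each point is 1 of the 43 members; the vertical axis gives its level in silenced library 2 over the mean of silenced libraries 1 and 3, and the horizontal axis the same for control library 2 (log axes, 0.5 CPM added, colour by role). The 22 members to the right of and above the dashed lines at 2 include all 8 amino acid and one-carbon enzymes, while SDF2L1, CALR, CRELD2, HYOU1, PPP1R15A and ERN1 lie below 1 on one axis.

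Other gene groups moved in the same libraries. The summed level of 6 cell cycle markers was 343, 11.4 and 306 CPM in silenced libraries 1, 2 and 3, 136, 17.9 and 143 CPM in control libraries and 19.5, 46.5 and 39.3 CPM in the monolayer. The sum was thus lowest in both ALI libraries numbered 2. The squamous marker sum was 90700, 50600 and 78400 CPM in silenced libraries and 74100, 38000 and 88700 CPM in control libraries, lowest in library 2 of each arm. DSG3 ran the other way, with 1946, 3073 and 2190 CPM in silenced and 2923, 3246 and 2584 CPM in control libraries. TP63 was lowest in library 2 of the silenced arm only. The rest of the squamous list was lowest in library 2 of each arm. Of the leukocyte markers, CD14 had 0.374, 8.24 and 0.468 CPM in silenced libraries and 1.07, 11.1 and 1.9 CPM in control libraries, highest in library 2 of each arm. The other leukocyte markers did not share this. CD68 had 71.2, 87 and 66.5 CPM in silenced and 51.7, 55 and 68.6 CPM in control libraries, where library 3 was highest. PTPRC, MS4A1 and HLA-DRA were at 0 in all ALI libraries, and CD3E in all but control library 1. The part of these in the stress gene levels was not tested. In bulk RNA, fewer cells of a type and less RNA per cell cannot be told apart.

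Whether silencing SPINK7 moves these genes was asked in the ALI cells. No member passed the test between silenced and control libraries (0 of 43 higher and 0 of 43 lower, edgeR's quasi-likelihood test with Benjamini-Hochberg adjustment over 12806 genes, threshold 0.05), against 0.226% of all genes higher and 0.703% lower. At an unadjusted p under 0.05 there were 2, DDIT4 and DNAJC3, against 1173 of all 12806 genes. DESeq2's Wald test called 1, DDIT4, against 415 of all 12806 genes. Log2 fold changes ran from -0.88 (DNAJB9) to 1.05 (ATF3), with a median of 0.05 over the ATF4 side, -0.12 over the ER side and 0.01 over all genes. Standard errors ran from 0.21 (DDIT4) to 0.96 (DDIT3), so changes of the most variable members were not resolved at this spread.

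DDIT4 (REDD1; hg19 chr10:74033677-74035797), an inhibitor of mTORC1 that stress and hypoxia induce, had 354, 412 and 273 CPM in silenced libraries 1, 2 and 3, 176, 210.1 and 171 CPM in control libraries and 444, 453 and 432 CPM in the monolayer. Every silenced library lay above every control library, and every monolayer library above all of these. The log2 fold change was 0.90 (SE 0.21, adjusted p = 0.097); adjusted p over the alternatives ran from 0.00177 to 0.323, and with both ALI libraries numbered 2 left out it was 0.85 (SE 0.19, adjusted p = 0.02). DNAJC3, a cochaperone that inhibits PERK, was at 58, 74.8 and 58.4 CPM in silenced libraries and 99.5, 136 and 66.6 CPM in control libraries (-0.66, SE 0.27, adjusted p = 0.454). ATF3 had 11.4, 31.3 and 28 CPM in silenced libraries 1, 2 and 3, 8.71, 17.7 and 7.93 CPM in control libraries and 23, 7.59 and 7.24 CPM in the monolayer. Silenced library 1 lay inside the control range, and the log2 fold change was 1.05 (SE 0.54, adjusted p = 0.61). SESN2, a leucine sensor and mTORC1 inhibitor, had 34.1, 77.7 and 30.3 CPM in silenced libraries against 25.4, 36.5 and 24 CPM in control libraries (0.73, SE 0.35, adjusted p = 0.569); the groups overlapped.

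No other member followed by library passed either. As log2 fold changes, ASNS was -0.61 (SE 0.89, adjusted p = 0.85), DDIT3 -0.55 (SE 0.96, adjusted p = 0.875), TRIB3 -0.12 (SE 0.75, adjusted p = 0.968) and PSAT1 -0.31 (SE 0.89, adjusted p = 0.927). WARS was 0.36 (SE 0.40, adjusted p = 0.802), HSPA5 -0.12 (SE 0.51, adjusted p = 0.955), HERPUD1 -0.04 (SE 0.58, adjusted p = 0.989) and SDF2L1 0.08 (SE 0.26, adjusted p = 0.937). XBP1 was -0.71 (SE 0.53, adjusted p = 0.728) and ERN1 0.26 (SE 0.38, adjusted p = 0.853). Which libraries entered decided the direction of the ATF4 side: its median was 0.74 without control library 2 and -0.84 without silenced library 2. The ER side had a median of 0.13 without control library 2 and -0.59 without silenced library 2. With both left out, the medians were -0.11 and -0.31, and DDIT4 was the single member called (1 of 43 higher, against 2.17% of all genes, and 0 lower, against 3.31%). CHAC1 then had -1.05 (SE 0.28, adjusted p = 0.0519), against 0.27 (SE 0.73, adjusted p = 0.921) with all libraries, which is the turn seen in its values above. Of the members listed at the start of this paragraph, DDIT3 and ERN1 also turned, and neither passed. DDIT3 was then 0.33 (SE 0.34, adjusted p = 0.726) and ERN1 -0.20 (SE 0.345, adjusted p = 0.852).

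**Figure D3:**
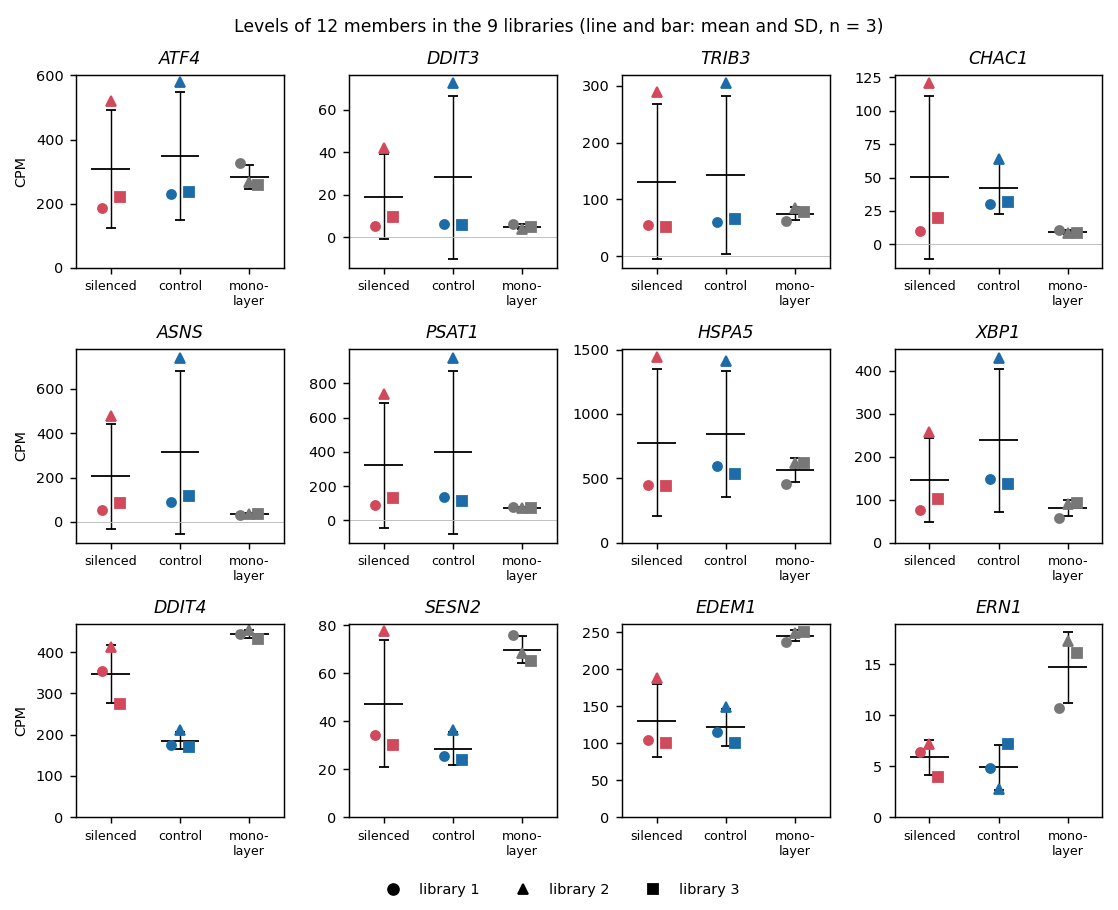
CPM of 12 members in each library, with silenced left of control and monolayer; marker shape gives the library number, and the line and bar the mean and SD of 3 libraries. For ATF4, DDIT3, TRIB3, CHAC1, ASNS, PSAT1, HSPA5 and XBP1 the triangles of both ALI groups (library 2) sit above the other libraries, whereas DDIT4, SESN2, EDEM1 and ERN1 are highest or among the highest in the 3 monolayer libraries.

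ALI differentiation was asked by setting the control libraries against the monolayer. Compared with the monolayer, control ALI cells held less DDIT4, SESN2, EDEM1, ERN1 and HYOU1 mRNA and more ASNS, CHAC1, NARS, MANF, ATF6 and XBP1 mRNA. Thus 6 of 43 members rose (14%, against 20.3% of all genes) and 5 fell (11.6%, against 20.2% of all genes), shares below those of all genes. The median log2 fold change was 0.73 over the ATF4 side, 0.27 over the ER side and 0.03 over all genes. Air contact, the calcium shift, the permeable support and stratified growth come together in the ALI groups and cannot be told apart. Culture days of the monolayer are not given in the labels. The control libraries also serve in the silencing comparison.

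The 5 that fell did not rest on control library 2: without it all 5 still passed. DDIT4 gave -1.25 (SE 0.22, adjusted p = 0.00147), and SESN2 -1.29 (SE 0.35, adjusted p = 0.0154), with 25.4, 36.5 and 24 CPM in control libraries and 75.9, 68.4 and 65 CPM in the monolayer. EDEM1 had 115, 149 and 100 CPM in control libraries against 237, 249 and 250.1 CPM in the monolayer (-1.01, SE 0.27, adjusted p = 0.0144). ERN1, the IRE1 sensor, gave -1.57 (SE 0.38, adjusted p = 0.00864). HYOU1, a chaperone and nucleotide exchange factor of BiP, had 124, 129.8 and 140 CPM in control libraries and 206, 248 and 253 CPM in the monolayer (-0.84, SE 0.25, adjusted p = 0.0215). For each of these 5 the highest control library lay below the lowest monolayer library. The 5 were picked by this same comparison, so this adds no support, and the share of all genes so separated was not counted. DDIT4, EDEM1 and ERN1 passed under all 16 alternatives. SESN2 was lost without control library 1 (adjusted p = 0.0531), and HYOU1 without control library 1, monolayer library 2 or monolayer library 3, or with those 2 monolayer libraries summed.

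The 6 that rose varied more between control libraries. ASNS gave 3.19 (SE 0.97, adjusted p = 0.0253), with its lowest control library, at 88.9 CPM, above the highest monolayer library, at 37.0 CPM. CHAC1 gave 2.17 (SE 0.78, adjusted p = 0.0467). XBP1, whose spliced form drives ER expansion, gave 1.57 (SE 0.54, adjusted p = 0.0411). NARS had 328, 975 and 320 CPM in control libraries against 228, 198 and 210.3 CPM in the monolayer (1.35, SE 0.43, adjusted p = 0.0317). MANF, a secreted ER cochaperone, had 64, 148 and 70 CPM in control libraries against 35.6, 46.6 and 52.1 CPM in the monolayer (1.07, SE 0.36, adjusted p = 0.0381). ATF6 had 96.2, 196 and 92.1 CPM in control libraries and 50.2, 57.6 and 58.7 CPM in the monolayer (1.21, SE 0.33, adjusted p = 0.0157). For each of the 6 no control library lay within the monolayer range. These 6 were also picked by this comparison, so the separation adds no support to their calls. How many of all genes were so separated was not counted.

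Without control library 2, ATF6 alone of the 6 still passed. Without monolayer library 1 none of the 6 passed (ATF6 adjusted p = 0.0574), and without monolayer library 2 or 3 ATF6 alone did. With monolayer libraries 2 and 3 summed, ASNS, CHAC1, NARS, MANF and XBP1 were lost, and without the low-count filter ASNS, CHAC1 and XBP1. CHAC1 was also lost without control library 1 or 3, and MANF and XBP1 without silenced library 3. With both ALI libraries numbered 2 left out, 9 of 43 members rose (20.9%, against 24.9% of all genes) and 6 fell (14%, against 25.7% of all genes), so calls grew in number over all genes too, and the SE was smaller, for ASNS 0.21 against 0.97 with all libraries. The 9 were all 6 above with PSAT1, PHGDH and MTHFD2. Their sizes were smaller: ASNS had 1.58 (SE 0.21, adjusted p = 7.41e-05), CHAC1 1.73 (SE 0.25, adjusted p = 0.000165) and XBP1 0.83 (SE 0.21, adjusted p = 0.00568). PSAT1 had 0.73 (SE 0.18, adjusted p = 0.00519), against 2.42 (SE 0.94, adjusted p = 0.0637) with all libraries. STC2 was the added member that fell, at -1.45 (SE 0.26, adjusted p = 0.000778). The median of the ATF4 side was then 0.15 and that of the ER side 0.

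Within the roles, all 8 amino acid and one-carbon enzymes had a log2 fold change above 0 (median 1.45) with 1 past the threshold, and all 6 synthetases did (median 0.78) with 1 past it. Over all genes, 6553 of 12806 had a log2 fold change above 0, 20.3% rose past the threshold and 20.2% fell past it. The role counts in this paragraph are to be read against these shares. With both ALI libraries numbered 2 left out, 6 of the 8 enzymes (median 0.38) and 5 of the 6 synthetases (median 0.25) were above 0. Among the 12 factors, 1 rose and 2 fell (median 0.11). ATF4 was 0.30 (SE 0.45, adjusted p = 0.621), DDIT3 2.48 (SE 1.04, adjusted p = 0.0799), TRIB3 0.95 (SE 0.76, adjusted p = 0.337) and ATF3 -0.15 (SE 0.54, adjusted p = 0.839). With both libraries left out, the direction of 2 of these turned: ATF4 was -0.28 (SE 0.17, adjusted p = 0.2) and TRIB3 -0.24 (SE 0.17, adjusted p = 0.262), and DDIT3 was 0.25 (SE 0.32, adjusted p = 0.54). The 10 chaperones and folding factors, with 1 up and 1 down, had a median of 0.08. HSPA5 was 0.59 (SE 0.52, adjusted p = 0.382), DNAJB9 1.21 (SE 0.84, adjusted p = 0.274) and SDF2L1 0.14 (SE 0.26, adjusted p = 0.678); with both libraries left out HSPA5 was 0.01 (SE 0.19, adjusted p = 0.985), and DNAJB9 turned to -0.52 (SE 0.26, adjusted p = 0.114). Of the 3 degradation genes 1 fell, and HERPUD1 was 1.00 (SE 0.59, adjusted p = 0.196), or 0.31 (SE 0.19, adjusted p = 0.193) without both. Among the 4 sensors and factors, ATF6 and XBP1 rose, ERN1 fell and EIF2AK3 was 0.46 (SE 0.24, adjusted p = 0.14). WARS was 0.73 (SE 0.40, adjusted p = 0.172).

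**Figure D4:**
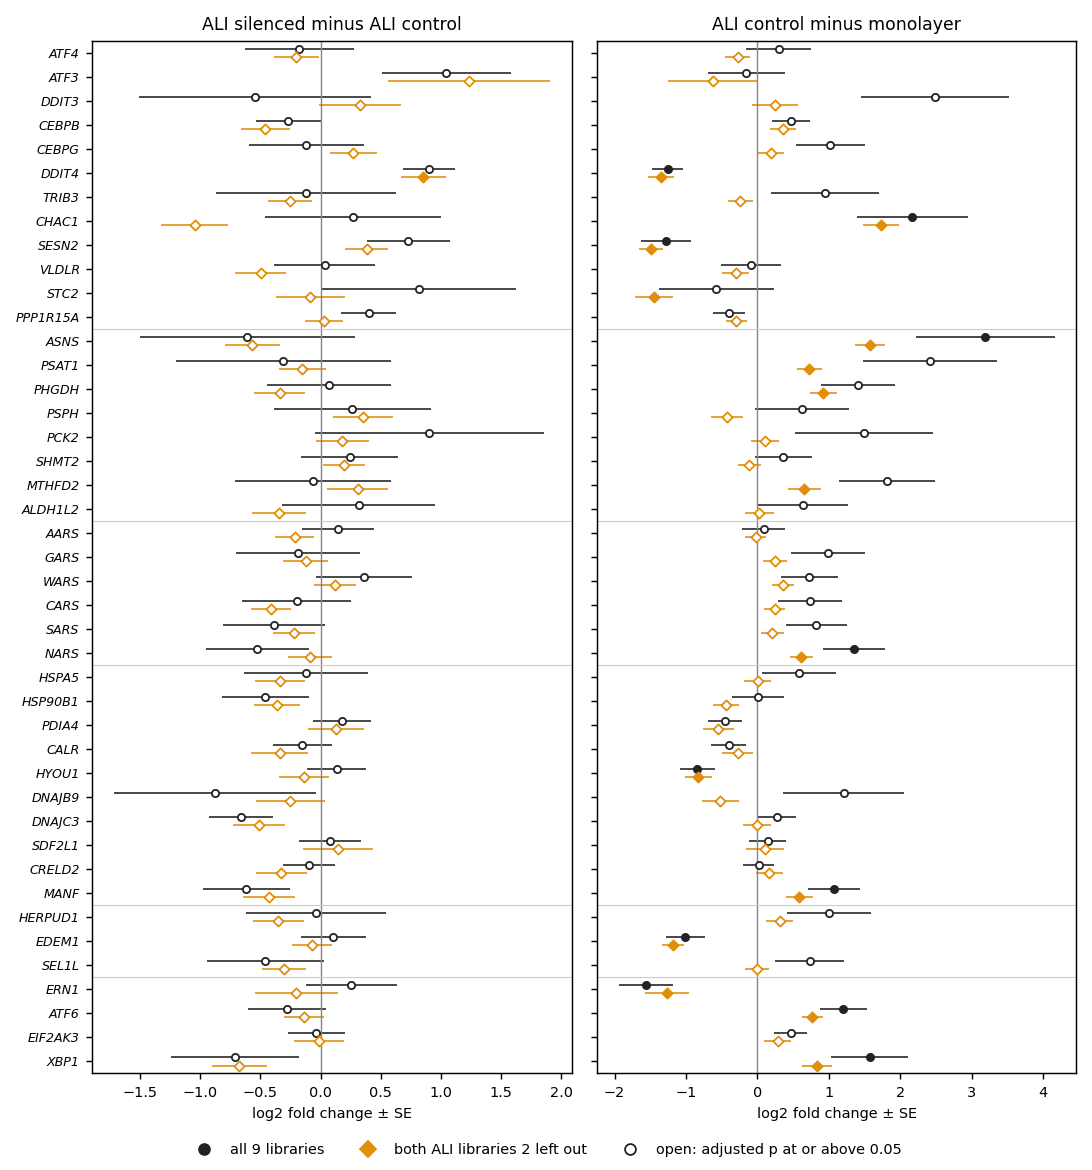
Log2 fold change with its SE for each of the 43 members, silenced minus control (left panel) and control minus monolayer (right panel), from all 9 libraries (black circles) and with both ALI libraries numbered 2 left out (orange diamonds); filled symbols have an adjusted p below 0.05. The left panel has 1 filled symbol, the diamond of DDIT4, and the right panel 11 filled circles and 15 filled diamonds with visibly shorter bars.

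Per transcript length, the deposited RPKM placed CALR highest in the monolayer (324 ± 66.1 RPKM), followed by DDIT4 (227 ± 4.62 RPKM) and HSP90B1 (193 ± 23.8 RPKM, all mean ± SD, n = 3), the ER paralog of HSP90. The lowest there were ERN1 (3.3 ± 0.793 RPKM), DDIT3 (4.37 ± 1.06 RPKM) and EIF2AK3 (4.41 ± 0.266 RPKM). CALR led in both ALI groups as well, at 212 ± 32.4 RPKM in silenced and 218 ± 48.6 RPKM in control libraries. Next came ATF4 at 186 ± 116 RPKM in silenced and 189 ± 93.6 RPKM in control libraries, whose spread overlaps that of CALR. ERN1 was lowest in both, at 1.27 ± 0.372 and 0.996 ± 0.492 RPKM.

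In the wider pathway, 96 further genes in 6 lists were looked up and 92 tested. After silencing, 0 of 92 passed in either direction, against 0.226% of all genes higher and 0.703% lower. At an unadjusted p under 0.05 (edgeR) there were 2, against 1173 of all 12806 genes. DESeq2 called 1, EIF2AK2, against 415 of all 12806 genes. EIF2AK2 (PKR, the kinase that senses double-stranded RNA) had 1.48 (SE 0.37, adjusted p = 0.114) with edgeR. With both ALI libraries numbered 2 left out, EIF2AK2 alone of these wider genes passed, at 1.59 (SE 0.20, adjusted p = 0.000479). Of all genes, 2.17% were then called higher and 3.31% lower. Between control libraries and the monolayer 14 of 92 rose (15.2%, against 20.3% of all genes) and 11 fell (12%, against 20.2%). With both ALI libraries numbered 2 left out, all 14 and all 11 still passed in the same direction, among 20 that rose (21.7%, against 24.9%) and 21 that fell (22.8%, against 25.7%). Of the 12 eIF2, eIF2B, kinase and phosphatase genes, 6 rose and 1 fell: EIF2B2, a subunit of the exchange factor, was 1.26 (SE 0.32, adjusted p = 0.0115), EIF2S1, the phosphorylated subunit of eIF2, 1.13 (SE 0.22, adjusted p = 0.00288), and EIF2AK4 (GCN2), the kinase that senses uncharged tRNA, -0.84 (SE 0.17, adjusted p = 0.00325). Of 14 other cytosolic synthetases 6 rose and 0 fell, with FARSB at 1.54 (SE 0.22, adjusted p = 0.000538) and EPRS at 1.49 (SE 0.49, adjusted p = 0.0348), or 0.72 (SE 0.18, adjusted p = 0.00548) without both. Of 18 other ATF4-linked genes 0 rose and 3 fell, among them TNFRSF10B, the death receptor DR5 (-2.13, SE 0.20, adjusted p = 3.66e-05), and RAB39B (-4.14, SE 1.06, adjusted p = 0.0114), with 0 counts in control libraries 1 and 3. Of 22 other folding factors 0 rose and 3 fell, led by KDELR3, which returns chaperones to the ER (-1.68, SE 0.27, adjusted p = 0.00101), and WFS1 (-1.02, SE 0.27, adjusted p = 0.0131). Of 10 other degradation genes 1 rose, UBE2J1, at 1.16 (SE 0.33, adjusted p = 0.0177), or 0.74 (SE 0.20, adjusted p = 0.00819) without both. Of 16 translocation and transport genes 1 rose and 4 fell, led by SEC24D, of the COPII coat (-1.96, SE 0.25, adjusted p = 0.000231), and CREB3L2 (-1.33, SE 0.22, adjusted p = 0.00111). In both ALI libraries numbered 2, the 2-fold ratio was met by 7 of 18 ATF4-linked genes, 2 of 14 synthetases, 2 of 22 folding factors and none of the 12, 10 and 16 genes of the other 3 lists, against 2.43% of all genes. The 7 include RAB39B, at 0, 0.5045 and 0 CPM in control libraries 1, 2 and 3, so its control ratio (2.01) rests on the added 0.5 CPM. Of these lists, 1 ATF4-linked gene (TXNIP) and 1 synthetase (VARS) were 2-fold lower in both, against 3.65% of all genes.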

How the data were processed

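The deposited tables, 1 per library, hold whole-number read counts per transcript row, not normalized, and RPKM values that the authors made from them. The submitters' processing notes name STAR 2.4.2a, Bowtie, MACS2 and genome build hg19, without roles. Which program counted reads, and whether by strand, is not given in the sources used here; overlapping antisense genes may share reads. The protocols in the labels describe stranded polyA libraries.

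Counts were summed per gene symbol and chromosome. Rows naming several genes (511 of 29800) held 0.411 to 0.554% of a library's counts. All 9 libraries were fitted together in edgeR 4.0.16 (R 4.3.3; filterByExpr leaving 12806 genes, TMM factors, robust quasi-likelihood F-test with 6 residual degrees of freedom). Adjusted p-values are Benjamini-Hochberg adjusted over these genes, with a threshold of 0.05. The SE of a log2 fold change comes from the F statistic. CPM use the TMM-adjusted library sizes. RPKM, summed over a gene's rows, served for levels between genes only. The fitting script was tested on simulated data. DESeq2 1.42.0 was an alternative.

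The members and lists were chosen with earlier results of these data known. Values by library are given for members that passed and for ATF4, ATF3, DDIT3, TRIB3, CHAC1, ASNS, PSAT1, SESN2, WARS, HSPA5, DNAJB9, HERPUD1, SDF2L1, XBP1 and ERN1. Wider lists give up to 2 passing genes by size of change. Others were chosen after their values were seen. Monolayer libraries 2 and 3 differed least between replicates (chi-square per degree of freedom 1.91, other pairs 16.8 to 160) and were summed in 1 alternative. The remaining alternatives were DESeq2 size factors, no low-count filter, a replicate block, the 2 groups of a comparison alone, both ALI libraries numbered 2 left out, and each library left out in turn.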

Additional observations from a re-analysis of the deposited data

How the results depend on the processing

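The silencing comparison called 119 genes of all tested, 415 with DESeq2's Wald test, 59 with only the 2 groups fitted, 708 with both ALI libraries numbered 2 left out, 79 with monolayer libraries 2 and 3 summed, and from 28 (without silenced library 1) to 236 (without silenced library 2) with 1 library left out. Of the 43 members, it called 0, and 1 (DDIT4) with DESeq2's Wald test and with both ALI libraries numbered 2 left out; leaving out any 1 library gave 0. The differentiation comparison called 11 members, 5 with monolayer libraries 2 and 3 summed, and from 5 (without monolayer library 1, 2 or 3) to 14 (without control library 3 or silenced library 2) with 1 library left out; the cause was not tested. Its count over all genes, 5190, stayed within 1.5 times under all 16 alternatives. Without the low-count filter 3 members rose, against 6 with it, and without control library 1, 3 fell, against 5. With the replicate block, the silencing comparison called 176 genes and 0 members, and the differentiation comparison 5132 genes and 13 members. The label numbers did not meet the rule for paired samples: deviations of same-numbered silenced and control libraries correlated at 0.52, 0.58 and -0.03, and those of control and monolayer libraries at -0.16, -0.24 and 0, and not every library correlated best with its own number. By the numbers in the table names, 2 silenced and control pairs correlated at 0.58 and 0.2; no block was fitted on these, since the third pair shares no number. ERN1, SDF2L1, CRELD2, ATF3 and DDIT3 had means under 30 CPM in every group, where depth can add to the spread between libraries. With 3 libraries a group, members with a wide spread, such as ASNS, PSAT1 and DDIT3, could change by large factors without a call.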

Other observations

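Among 18 other ATF4-linked genes tested, 3 outside the 43 members had ratios in silenced library 2 above that of any member (at most 10.8, PCK2); these and TXNIP were chosen after their values were seen. CTH, which makes cysteine from cystathionine, had 5.05, 104 and 8.43 CPM in silenced libraries 1, 2 and 3, 5.36, 97.4 and 7.08 CPM in control libraries and 2.83, 3.44 and 3.4 CPM in the monolayer. Silenced library 2 and control library 2 were 14.4 and 14.6 times the mean of the other 2 libraries of their groups. NUPR1, a stress-induced nuclear protein, had 7.66, 156 and 11.8 CPM in silenced libraries 1, 2 and 3, 13.7, 185 and 20.2 CPM in control libraries and 14.4, 2.83 and 2.23 CPM in the monolayer, with ratios of 15.3 and 10.6. GDF15, a secreted hormone of stressed cells, had 1.59, 39.6 and 2.22 CPM in silenced libraries 1, 2 and 3, 1.34, 33.4 and 4.44 CPM in control libraries and 9.63, 9.31 and 11.1 CPM in the monolayer, with ratios of 16.7 and 10. All 3 were thus at their highest in both ALI libraries numbered 2. TXNIP, which lowers glucose uptake, ran the other way, with 123, 18.4 and 180.2 CPM in silenced libraries 1, 2 and 3, 277, 14 and 228 CPM in control libraries and 267, 164 and 169 CPM in the monolayer and ratios of 0.124 and 0.0573. No p-value attaches to these ratios. In the silencing comparison CTH was 0.10 (SE 1.19, adjusted p = 0.983), NUPR1 -0.31 (SE 1.24, adjusted p = 0.952), GDF15 0.17 (SE 1.19, adjusted p = 0.972) and TXNIP -0.69 (SE 0.91, adjusted p = 0.834), and against the monolayer none of the 4 passed; with both ALI libraries numbered 2 left out CTH rose (0.96, SE 0.30, adjusted p = 0.0201) and GDF15 fell (-1.74, SE 0.39, adjusted p = 0.00298). Of the ER folding factors, HSPA13, also chosen after its values were seen and known as an HSP70 relative of microsomes, had 24.9, 118 and 34.5 CPM in silenced libraries 1, 2 and 3, 34.7, 259 and 23.7 CPM in control libraries and 46.5, 47.9 and 51.8 CPM in the monolayer, with ratios of 3.91 and 8.73.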
